A study of Drosophila melanogaster with 3 samples.

Results

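The cytosolic ribosomal protein (RP) genes of Drosophila melanogaster, 60 genes listed by FBgn identifier (37 of the large and 23 of the small ribosomal subunit), were examined in a full-length isoform assembly of fly heads. Of the 60 genes, 44 had at least 1 isoform, and together they held 49 of the 4969 isoforms that carry an FBgn identifier. The remaining 4920 isoforms belonged to 4015 other genes. The study concerned the link between promoter choice and the exons and 3′ ends of mRNAs. Its head Iso-seq libraries, in which 1 consensus read spans a cDNA from end to end, came from 3-day-old untreated adults of the stock w1118, labelled wild type, kept at 25 °C. All 3 libraries belonged to that single group and were pooled into 1 file of exon coordinates on the dm6 build, so no comparison between conditions and no replicate error exists. The file holds no read numbers, and its intervals below cover only how many isoforms, introns or genes were counted.

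Ribosomes are built from rRNA and a fixed set of proteins, most of them encoded by a single expressed gene in the fly. Loss of 1 copy of many RP genes slows fly development and gives short, thin bristles, the Minute phenotype. RP mRNAs are short and abundant, their transcription often starts within a stretch of pyrimidines, and their introns are known hosts of small nucleolar RNAs (snoRNAs), which guide chemical modification of rRNA. The sequence around the start sites was not analysed here, and the description concerns exons, introns, ends and intronic genes.

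The labelled tissue was checked with marker genes. Of 16 head markers of photoreceptors, neurons, glia, fat body and muscle, 13 had an isoform, whereas elav, brp and repo had none. Of 4 genes chosen for ovary, testis or female fat body, osk, vas and bam had none. Of all protein-coding genes outside the RP list, only 28.7% had an isoform, so such an absence cannot tell tissues apart. Yp1, a gene of female fat body and so not foreign to heads, had 1 isoform. A further planned gene, nos, did not match the annotation by symbol and was not counted.

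RpL32 (FBgn0002626), long used as a reference transcript in fly RT-qPCR, is the member for which the study's methods give oligonucleotides. They are shown because the RpL32 isoform in heads did not reach its annotated start. The gene lies on chromosome 3R. Both primers, 5′ to 3′, have 18 nt, and their place in the isoform was not determined here.
RpL32 fwd: gcaccaagcacttcatcc
RpL32 rev: agcggcgacgcactctgt

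The listed RP genes had an isoform in 73.3% of cases (44 of 60, 95% Wilson interval 61.0 to 82.9%), with 27 of 37 large subunit genes and 17 of 23 small subunit genes. Over all 93 annotated genes whose symbol starts with RpL or RpS, together with sta, the share was 59.1% (55 genes, 49.0 to 68.6%). This wider set was taken by symbol and includes genes named as RP-like, such as RpL24-like, none of which had an isoform. Mitochondrial RP genes, which build the separate ribosome of mitochondria, had one in 22 of 73 cases (30.1%, 20.8 to 41.4%). Genes of translation initiation and elongation factors (symbols eIF and eEF) had one in 29 of 52 cases (55.8%, 42.3 to 68.4%). All protein-coding genes outside the list, which include the mitochondrial RP genes and translation factors, had one in 3985 of 13885 cases (28.7%). Among genes whose longest annotated transcript has at most 750 nt, 14 of 19 listed RP genes and 20 of 37 genes of the wider set by symbol (54.1%) had an isoform. The same held for 154 of 1975 protein-coding genes outside the list (7.80%). The libraries had been size-selected for cDNA above 3 kb, and the part of this step in these shares was not tested.

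The 16 listed genes with no isoform were RpL6, RpL7A, RpL9, RpL11, RpL19, RpL21, RpL22, RpL26, RpL28, RpL30, RpS3, RpS7, RpS14a, RpS15, RpS18 and RpS24. Their longest annotated transcripts had a median of 927 nt (606 to 1361 nt), against 933 nt (514 to 3835 nt) in the 44 genes with an isoform. The median longest coding sequence was 514.5 nt in both sets. An isoform entered the file only with at least 2 full-length reads, so a missing gene is not shown to be unexpressed. RpS14a has a neighbouring copy, RpS14b, which is outside the list and had 1 isoform. Reads of near-identical copies can be assigned to either.

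RP isoforms were short. Their spliced length had a median of 721 nt (95% interval of the median 618 to 863 nt, n = 49), against 2020 nt (1987 to 2051 nt, n = 4920) in other genes. The gap was smaller for other genes whose longest coding sequence lies between 249 and 1248 nt, the range of the detected members, since their 1810 isoforms had a median of 1292 nt (1261 to 1318 nt). Within that range their coding sequences were still longer, with a median of 792 nt against 531 nt in RP isoforms. Mitochondrial RP isoforms had 871 nt (788 to 1136 nt, n = 22) and translation factor isoforms 1921 nt (1503 to 2236 nt, n = 39). Of the RP isoforms, 41 of 49 (83.7%, 71.0 to 91.5%) were shorter than 1000 nt, against 11.4% in other genes. RP genes thus held 6.82% of all 601 isoforms below 1000 nt, although they held 0.986% of all isoforms. No RP isoform reached 3000 nt (0 of 49, up to 7.27%), against 22.4% in other genes, and 75.2% of other isoforms were longer than the longest RP isoform.

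**Figure D1:**
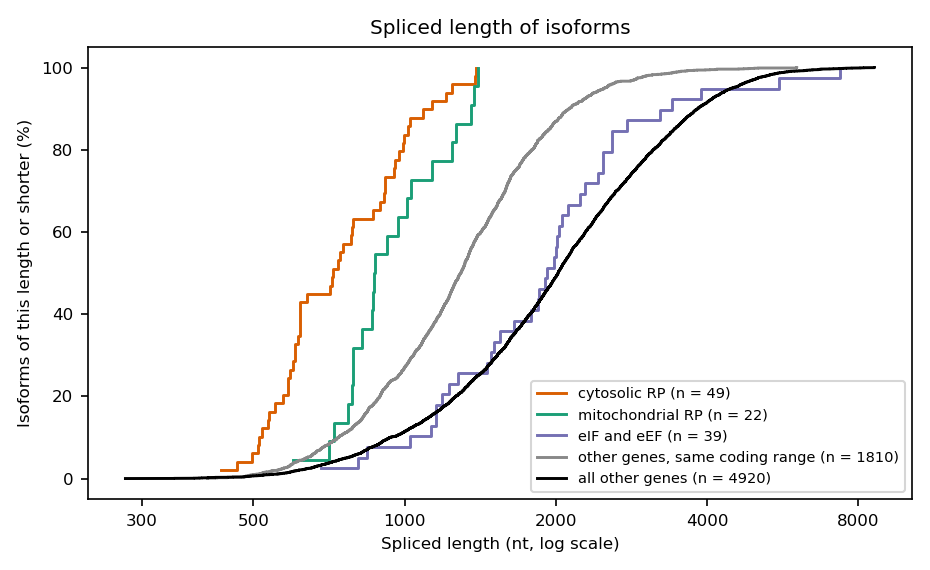
Cumulative share of isoforms (%, y axis) by spliced length (nt, log scale, x axis) for cytosolic RP genes, mitochondrial RP genes, translation factors, other genes in the same range of coding length and all other genes, 1 line each. The cytosolic RP line has the lowest median of the lines, 721 nt against 2020 nt for all other genes.

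The longest RP isoforms encode core proteins of the large subunit. RpL4 (FBgn0003279), whose protein lines the exit tunnel of the nascent chain, had 1 isoform of 1390 nt in 4 exons at chr3R:27922822-27924879. RpL3 (FBgn0020910), which lies near the peptidyl transferase centre, had 1 isoform of 1380 nt in 6 exons. The shortest isoforms were those of RpS21 (FBgn0015521), with 431 nt in 4 exons at chr2L:2856071-2856705, and of RpL36A (FBgn0031980), with 463 nt in 3 exons. The stalk proteins, which recruit elongation factors to the large subunit, spread over this range. RpLP0 (FBgn0000100), the base of the stalk, had an isoform of 1210 nt. RpLP1 (FBgn0002593) had 600 nt and RpLP2 (FBgn0003274) 605 nt. RpL40 (FBgn0003941) and RpS27A (FBgn0003942) are made as fusions with ubiquitin that are later cut apart, and they had isoforms of 586 and 591 nt.

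Most RP isoforms had few exons. The median was 3 exons (3 to 4, range 1 to 6), against 4 in other genes and 3 in other genes of the same coding range. RpL3 and RpS4 had 6, and RpLP2 was the single RP isoform without an intron (1 of 49, 2.04%), against 5.45% in other genes.

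The parts of RP isoforms differed in how far they departed from other genes. The 5′ UTR had a median of 50 nt (38 to 62 nt, n = 45 isoforms that hold the longest annotated coding sequence), against 146 nt in other genes and 124 nt in those of the same coding range. It ran from 25 nt in RpL13A to 138 nt in the longer RpL35 isoform. The 3′ UTR had a median of 95 nt (78 to 115 nt), against 248 nt in other genes and 225 nt in the same coding range. It ran from 30 nt in RpL17 to 520 nt in RpL13. These 2 isoforms ended far from the nearest annotated 3′ end, at -210 nt (upstream) and 296 nt (downstream). RpL12 had the next longest, 498 nt. Mitochondrial RP isoforms had a longer 5′ UTR (85 nt, 60 to 104 nt) and a shorter 3′ UTR (64 nt, 46 to 77 nt) than these cytosolic values. The coding sequence without its stop codon had a median of 531 nt (453 to 651 nt) in RP isoforms and 1257 nt in other genes. It was 792 nt (768 to 822 nt) in other genes of the same coding range, which share the range and not the median. Both UTRs together made up 21.7% (18.9 to 26.3%) of the RP isoform, against 26.8% in other genes and 34.9% (33.4 to 36.3%) in other genes of the same coding range. The share was 15.7% (12.3 to 19.3%) in mitochondrial RP isoforms and 23.2% (16.3 to 36.3%) in translation factor isoforms.

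**Figure D2:**
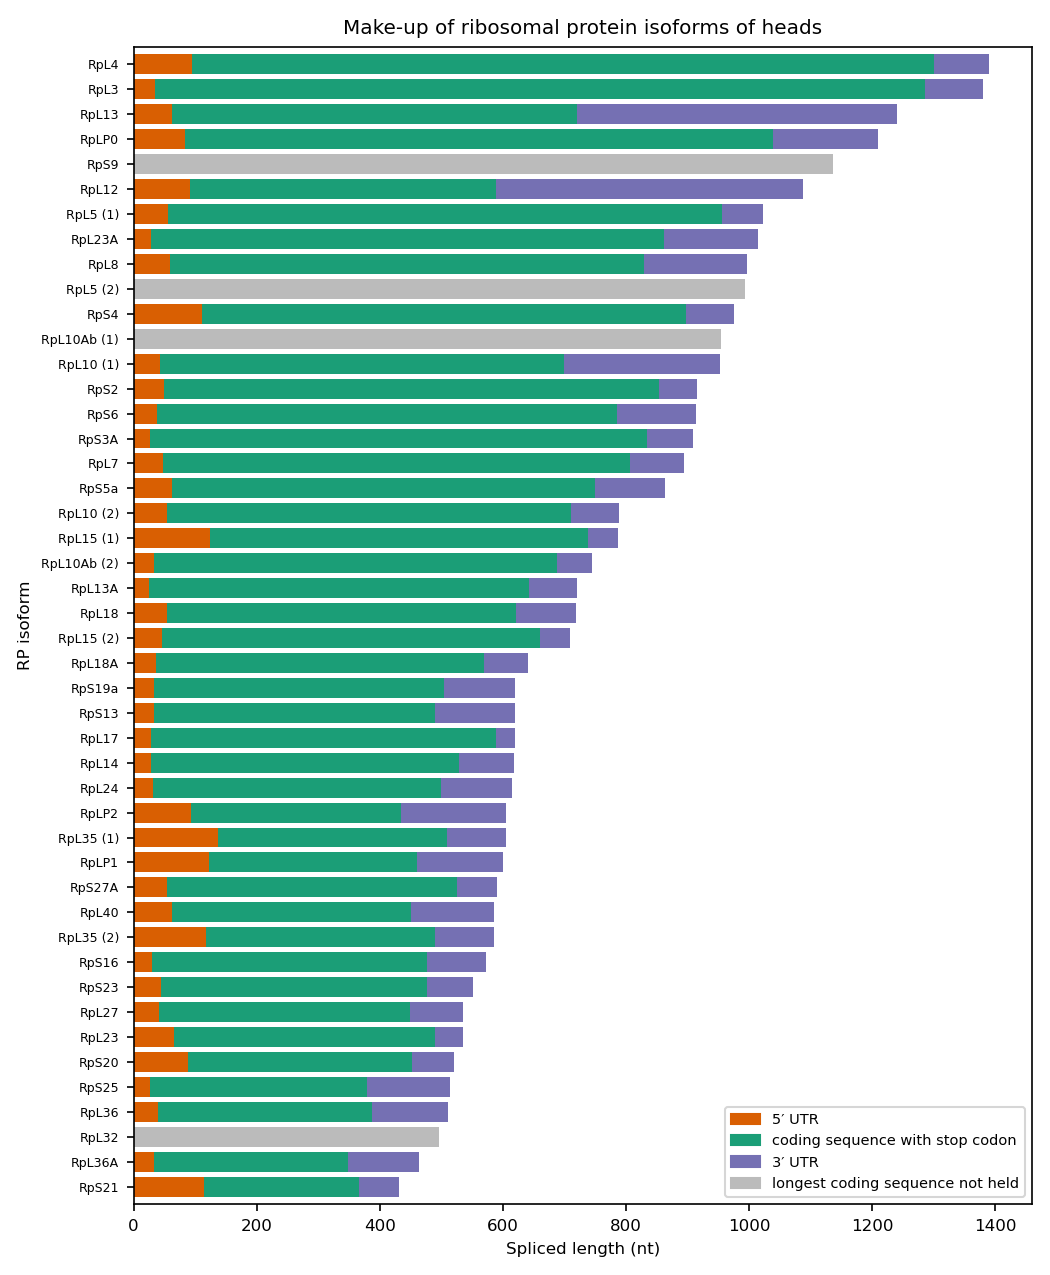
Spliced length (nt, x axis) of 46 of the 49 RP isoforms (rows), divided into 5′ UTR, coding sequence with stop codon and 3′ UTR; grey bars are the 4 isoforms that do not hold the longest annotated coding sequence, and numbers in brackets mark isoforms of 1 gene. Bars run from 431 nt in RpS21 to 1390 nt in RpL4, and the UTRs take between 9.35% of the bar in RpL3 and 54.2% in RpL12.

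The first exon of RP isoforms was short. In multi-exon isoforms it had a median of 44 nt (37 to 50 nt, n = 48), against 244 nt (238 to 249 nt, n = 4652) in other genes. It was 208 nt in other genes of the same coding range, 139 nt in mitochondrial RP genes and 153 nt in translation factors. The shortest RP first exon was that of RpL17 (18 nt) and the longest that of RpS3A (368 nt), the only member on chromosome 4. The RpL17 isoform began 25 nt downstream of the nearest annotated 5′ end. The internal exons had a median of 163 nt, against 204 nt in other genes and 175 nt in the same coding range. Last exons had 425.5 nt, against 672 nt and 598 nt.

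The annotated start codon of RP isoforms lay close to a splice junction. Among 44 multi-exon RP isoforms with the whole coding sequence, the start codon was in exon 1 in 21 (47.7%, 33.8 to 62.1%), against 65.0% in other genes, and in exon 2 in the other 23. Where it was in exon 1, the exon ended a median of 5 nt after the first base of the codon (3 to 18 nt, n = 21), counting that base. In other genes this stretch had a median of 128 nt (120 to 135 nt, n = 1808), and in mitochondrial RP genes 72.5 nt (44 to 176 nt, n = 20). Translation factors were closer to RP genes, with 34 nt (3 to 80 nt, n = 18), an interval that overlaps that of RP genes. The start codon was in exon 1 with at most 30 nt from its first base to the exon end in 40.9% of RP isoforms (27.7 to 55.6%), against 28.1% (15.6 to 45.4%) in translation factors and 6.80% in other genes.

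In 12 of the 44 isoforms (27.3%, 16.3 to 41.8%) the start codon was exactly the last 3 nt of its exon, against 1.12% in other genes and 1.70% (1.12 to 2.55%) in those of the same coding range. The next exon then opens with the second codon. The 12 isoforms came from 11 genes. Exon 1 ended with the start codon in RpL3, RpL4, RpL14, RpL36A, RpS20, RpS25 and both isoforms of RpL35. Exon 2 did so in RpL5, RpL18 and RpS4, among others. In RpL10Ab, RpL24, RpS6 and RpS23, exon 1 ended 1 to 3 nt further on. Translation factors had the start codon at the end of its exon in 2 of 32 isoforms (6.25%, 1.73 to 20.1%), and mitochondrial RP genes in 0 of 20 (up to 16.1%).

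**Figure D3:**
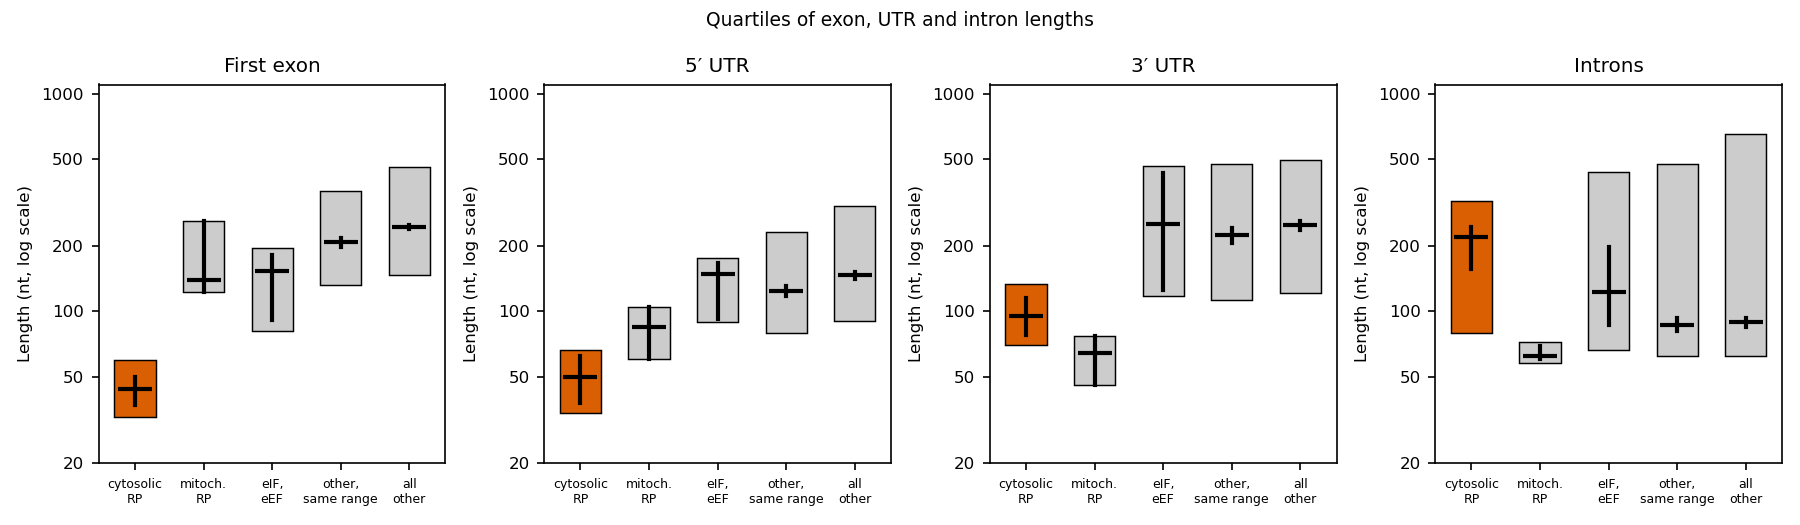
Lengths (nt, log scale, y axes) of first exons, 5′ UTRs, 3′ UTRs and introns, with groups on the x axes; boxes span the quartiles, the horizontal mark is the median and the vertical bar its 95% interval. First exons of cytosolic RP genes have a median of 44 nt against 244 nt in all other genes, whereas their introns have a median of 220 nt against 89 nt.

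Single introns had a higher median in RP genes, although the introns of a whole isoform did not add up to more. The 111 distinct introns of RP genes had a median of 220 nt (156 to 243 nt, range 55 to 1665 nt), against 89 nt (85 to 93 nt, n = 15919) in other genes. Other genes of the same coding range had 86 nt, mitochondrial RP genes 62 nt and translation factors 122 nt. Introns under 80 nt, the common short class of the fly, made up 28 of 111 RP introns (25.2%, 18.1 to 34.0%), against 47.7% in other genes. Introns of 1000 nt or more were also fewer, 4 of 111 (3.60%, 1.41 to 8.90%) against 20.3%. The first intron followed another order, with a median of 236 nt (144 to 289 nt) in RP genes, against 464 nt (419 to 512 nt) in other genes and 176 nt (148 to 205 nt) in the same coding range. The introns after it had 197 nt (101 to 244 nt) in RP genes, against 72 nt (71 to 73 nt) in other genes. The longest intron of an isoform had a median of 355 nt (284 to 475 nt) in RP genes, against 905 nt in other genes and 359 nt in the same coding range. All introns of an isoform together had 515.5 nt (407 to 668 nt), against 1303.5 nt and 530 nt. The genomic span of an isoform had a median of 1305 nt, against 3565.5 nt in other genes.

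The longest RP introns lay in 3 genes. RpS5a (FBgn0002590), a small subunit protein at the mRNA exit side, had introns of 1003, 1665, 299 and 846 nt, which took 81.5% of its 4676-nt span at chrX:17143589-17148264. RpS27A had a first intron of 1324 nt, and RpL17 (FBgn0029897), a protein at the exit tunnel, introns of 1047 and 801 nt. Among the shortest were introns of 55 and 60 nt in RpL5 and of 59 nt in RpL10.

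Many RP introns held a snoRNA gene on the same strand. The introns of the 44 detected genes contained 48 annotated snoRNA genes of 274 in the whole annotation, in 17 host genes (38.6%, 25.7 to 53.4%), against 0.797% of other genes (32 of 4015 genes, 75 snoRNA genes). The hosts were 9 of 27 large subunit and 8 of 17 small subunit genes. Among 22 mitochondrial RP genes none was a host, and among 29 translation factors 1 was. No snoRNA gene lay in an RP intron on the opposite strand.

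By their names, 30 of the 48 are pseudouridylation guides (Psi) and 12 methylation guides (Me), 33 carry 28S rRNA and 9 carry 18S rRNA as the target, and 6 name no rRNA. RpS5a hosted 14 of them, all Psi guides. Its second intron held 9 in a row, from snoRNA:Psi18S-1854c to snoRNA:Psi28S-1135a, of which 3 are copies of a guide to 18S and 6 are copies of a guide to 28S rRNA. RpS16 (FBgn0034743) hosted 5, of which 4 lay in its last intron of 706 nt. RpL17 hosted 4 Psi guides to 28S rRNA. RpL3 hosted 4, 1 in each of its last 4 introns, with 2 methylation guides to 18S, 1 to 28S and 1 Psi guide to 28S rRNA. RpS4 hosted 3, RpL13A, RpL14, RpL15 and RpS20 were among the hosts of 2, and RpL4, RpL5, RpL10Ab, RpL36A, RpS6 and RpS9 hosted 1 each.

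RP introns that held a snoRNA gene had a median of 308 nt (31 introns, 173 to 1665 nt), and those without one had 126.5 nt (80 introns, 55 to 1324 nt). The snoRNA genes themselves had 46 to 220 nt, and an intron that contains one is longer than it by construction. In RpS23 (FBgn0033912), the second intron of 248 nt contained the microRNA gene mir-308 on the same strand and no snoRNA gene.

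**Figure D4:**
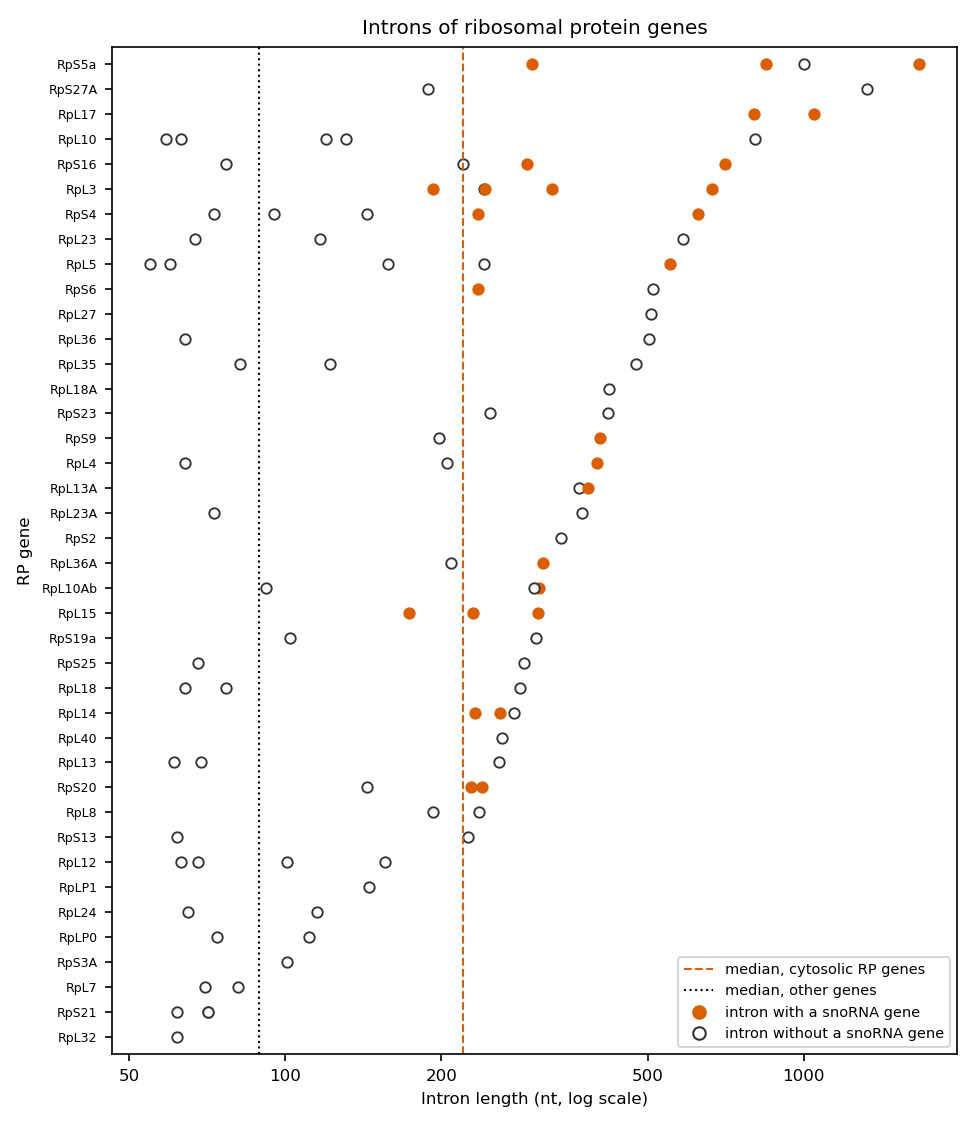
Length (nt, log scale, x axis) of each distinct intron of 40 RP genes (rows), filled where the intron holds a snoRNA gene on the same strand and open where it does not; lines mark the medians of cytosolic RP genes and of other genes. Filled points lie between 173 and 1665 nt, and introns under 100 nt are all open.

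The 5′ ends in the file had been selected, since the authors kept reads whose 5′ end is supported by a promoter database, so their match to annotated starts is a description of the file. Of 49 isoforms, 45 (91.8%, 80.8 to 96.8%) began within 1 nt of an annotated 5′ end, against 95.2% in other genes. The exceptions were RpL18, which began 5 nt away, RpL17, which began 25 nt away, RpS6 (FBgn0261592), which encodes the substrate of S6 kinase and began 45 nt away, and RpL32. The 497-nt RpL32 isoform at chr3R:30045230-30045788 began 280 nt downstream of the nearest annotated start and 2 nt upstream of annotated exon 2, so it lacked the annotated first exon. It held 402 nt of coding sequence, from an annotated transcript other than that with the longest one (441 nt), behind a 5′ UTR of 9 nt.

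Of the 3′ ends, 36 of 49 in RP isoforms (73.5%, 59.7 to 83.8%) matched the annotation within 1 nt, against 60.4% in other genes and 69.2% (67.0 to 71.3%) in those of the same coding range. Whether the study's filter and correction of 3′ ends had been applied to this file is not known, and it bears on what such a match means. Ends over 150 nt away occurred in 5 of 49 (10.2%, 4.44 to 21.8%), against 23.8% in other genes and 10.8% in the same coding range. Of these 5, 3 lay downstream of the nearest annotated end. Among them, RpL13 (FBgn0011272) ended 296 nt and the longer isoform of RpL10 (FBgn0024733) 174 nt downstream of that end. The RpL13 end lay beyond the annotated gene, whereas the RpL10 end lay inside the annotated gene, before a more distal annotated end. The isoforms of RpL17 and RpL24 (FBgn0032518) ended upstream, at -210 and -176 nt from the nearest annotated end.

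Splicing of RP isoforms was mostly as annotated. The study's methods describe a correction of splice junctions with short-read data before isoforms were built, which bears on what such a match means. The splice chain, the ordered set of junctions, was annotated in 45 of 48 multi-exon isoforms (93.8%, 83.2 to 97.9%), against 79.8% in other genes and 92.4% (91.0 to 93.6%) in those of the same coding range. The longest annotated coding sequence was held in 45 of 49 (91.8%, 80.8 to 96.8%), against 62.2% in other genes and 80.4% (78.5 to 82.2%) in the same coding range. The isoforms without it were those of RpL32 and RpS9 and 1 isoform each of RpL5 and RpL10Ab. In RpS9 (FBgn0010408), which encodes a protein of the mRNA entry channel, the 1136-nt isoform kept an annotated intron of 306 nt. It carried an annotated coding sequence of 411 nt in place of the longest one (585 nt), with 667 nt after the stop codon.

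Alternative isoforms were found in 5 RP genes, each of the large subunit, a share near that of other genes. Of 44 genes, 5 (11.4%, 4.95 to 24.0%) had 2 isoforms and none had more, against 14.8% of other genes with 2 or more and 9.47% (8.13 to 11.0%) in the same coding range. More than 1 transcription start site (TSS, 5′ ends merged within 50 nt) was found in 1 RP gene (2.27%, 0.402 to 11.8%). The share was 5.60% in other genes and 2.89% (2.17 to 3.83%) in the same coding range. More than 1 polyadenylation site (PAS, 3′ ends merged within 150 nt) was also found in 1 RP gene (2.27%). Here the share was 7.22% in other genes and 3.07% (2.33 to 4.04%) in the same coding range. In 4 of the 5 genes the isoforms differed in splicing or start at or before the start codon, and in RpL10Ab they differed within the coding sequence.

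RpL35 (FBgn0029785), an exit tunnel protein, was the gene with more than 1 TSS. Its isoforms of 605 and 585 nt began 333 nt apart and used exon 1 of 141 and 121 nt, each ending with a start codon, joined to the same second exon. RpL5 (FBgn0064225), which carries 5S rRNA into the ribosome, had isoforms of 1023 and 994 nt. The shorter one skipped a 29-nt exon that holds the 3 nt of the start codon, and the junction across it was not in the annotation. RpL15 (FBgn0028697), another core protein of the large subunit, had isoforms of 787 and 709 nt, with acceptor sites 78 nt apart that give 5′ UTRs of 124 and 46 nt. The snoRNA gene in its first intron lies in both versions of that intron.

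RpL10, a protein added late to the large subunit, was the gene with more than 1 PAS. Its isoforms of 952 and 788 nt ended 175 nt apart, with 3′ UTRs of 252 and 77 nt, and their first donor sites gave 5′ UTRs of 43 and 54 nt. RpL10Ab (FBgn0036213), which forms the L1 stalk, had isoforms of 955 and 745 nt with the same ends. The longer one had 210 nt more at the end of exon 2. Its splice chain was annotated, with a coding sequence of 171 nt in place of the longest one of 651 nt. A further isoform with no gene identifier lay over this gene, a single exon of 1359 nt that kept both introns (chr3L:11822852-11824210).

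**Figure D5:**
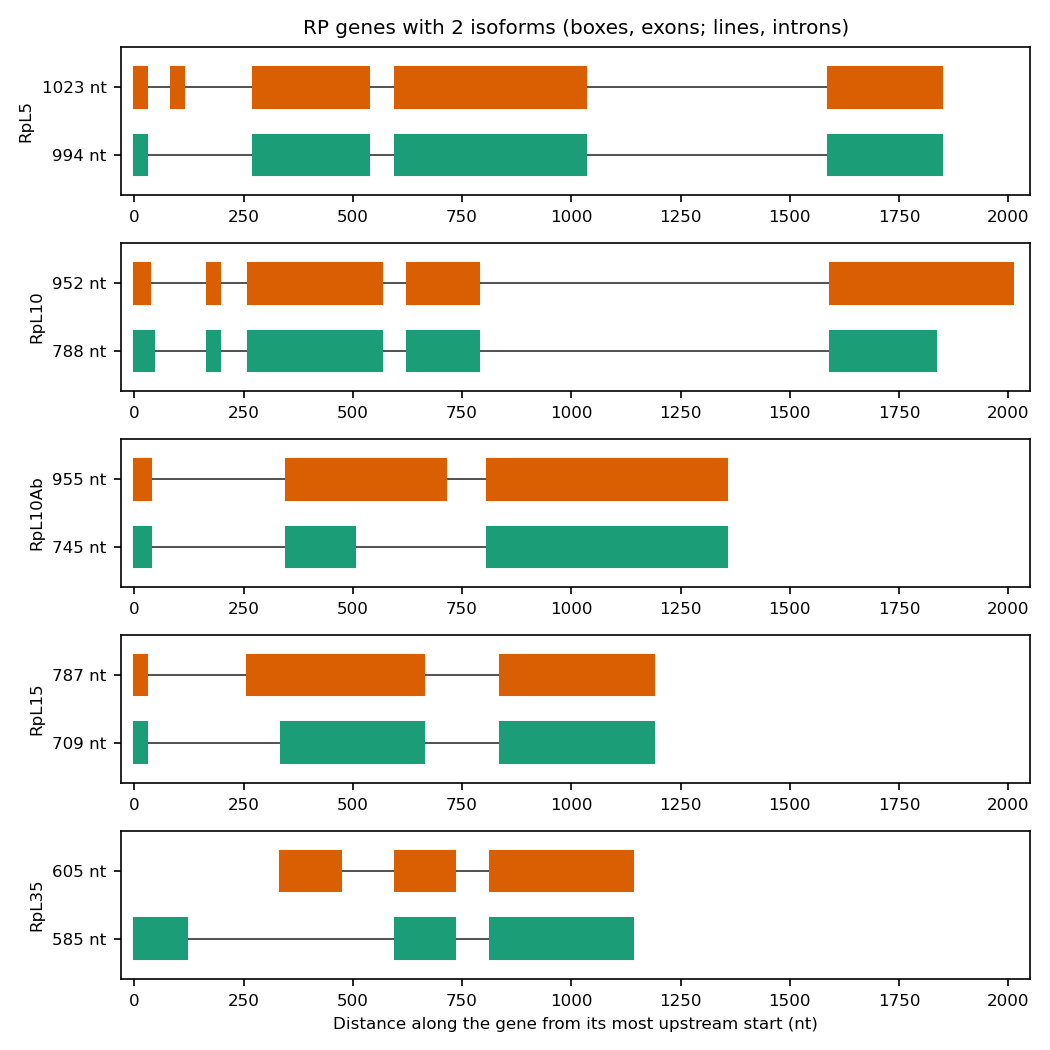
Exon structure of both isoforms of the 5 RP genes that had 2, drawn to scale as distance (nt, x axis) from the most upstream start of the gene, with boxes for exons and lines for introns; upper rows are the longer isoforms. RpL35 differs in its start by 333 nt, RpL10 in its end by 175 nt, and RpL5, RpL10Ab and RpL15 in internal splicing.

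RP genes with an isoform lay on all chromosomes of the file, 11 each on 2L and 3L, 8 on 3R, 7 on 2R, 6 on X and 1 on 4. In that order these were 25.0%, 25.0%, 18.2%, 15.9%, 13.6% and 2.27% of the 44 genes. Other genes with an isoform had 18.6%, 19.5%, 24.7%, 20.6%, 15.5% and 1.07%. Large and small subunit members had like structures. Their spliced length had medians of 719.5 nt (605 to 955 nt, n = 32) and 737 nt (572 to 909 nt, n = 17), their 5′ UTRs 54 and 47.5 nt, their 3′ UTRs 95 and 86.5 nt and their introns 193 nt (117 to 243 nt) and 235 nt (189 to 293 nt), with overlapping intervals in each case.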

How the data were processed

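Total RNA (0.5 µg) of heads was made into Iso-seq libraries with 14 PCR cycles, size-selected above 3 kb and run on 3 SMRT cells. The authors derived consensus reads with SMRT Link v8 and Iso-seq3, merged the libraries and aligned them to dm6 with STARlong. In the FLAIR correct step, splice junctions were corrected with short-read RNA-seq data. Isoforms were then built with FLAIR collapse, with a minimum of 2 full-length reads per isoform and at most 5 ends per chain. In that step a promoter database served to drop reads without a supported 5′ end. The deposited file holds exon coordinates (unit other, in nt) with no counts. The sources used here do not give the depth of each library. No per-sample column was left unused.

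Isoforms were compared with Ensembl release 115 (BDGP6.54, the assembly of dm6), which is newer than the annotation the authors used. Left ends in the file are shifted by 1 nt to the right, so ends were called equal within 1 nt. Coding sequences were laid on isoforms whose junctions carry them whole. The other genes, all with an FBgn identifier, include 11 RP genes outside the list, and 24 of them are not in the annotation. Intervals are 95% Wilson intervals for shares and order-statistic intervals for medians. No test was run, since members and lists were chosen with earlier results of these data known. Members described in detail were those with 2 isoforms, the longest and shortest isoforms and introns, most or fewest exons, ends away from the annotation, unannotated splice chains or snoRNA genes, and stalk, ubiquitin fusion and reference genes. A few members are counted but not reported here by name or drawn. Functions were checked on made-up transcripts. Python 3.11.15, numpy 2.4.6, scipy 1.17.1 and matplotlib 3.10.9 were used.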

Additional observations from a re-analysis of the deposited data

How the results depend on the processing

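Other settings gave 30 values beside those above, of which 19 stayed within 1.5 times a reported count or within the interval of another reported value, 11 moved and none reversed. Counting all annotated RpL, RpS and sta genes gave 55 of 93 detected (59.1%), below the interval of the listed share. Counting introns of all annotated transcripts gave 69 snoRNA genes over all listed genes, with or without an isoform, and 52 over the detected genes. With 2 isoforms required, 5 RP genes counted as detected. With 1 isoform per gene, the median spliced length of other genes was 1973 nt. Limiting other genes to the coding range of the members gave medians of 1292 nt for spliced length, 3 for exons, 208 nt for the first exon, 124 nt for the 5′ UTR and 225 nt for the 3′ UTR. Without the first intron, the median intron of other genes had 72 nt. RP introns without a snoRNA gene had a median of 126.5 nt. RP 3′ ends within 10 nt of an annotated end made up 87.8%, and those within 150 nt 89.8%. The settings for the first exon and the start codon, the coding range for UTRs, the introns without snoRNA genes and the count over all annotated RpL, RpS and sta genes were chosen after seeing the data. Leaving out a library could not be done on the pooled file. No paired analysis was possible because the 3 libraries form 1 group. Initiator motifs, pyrimidine runs and poly(A) signals were planned and not run, since no genome sequence was used here. Precision is limited by 49 isoforms of 44 genes, and counts of isoforms do not measure expression.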

Other observations

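Cytosolic RP genes outside the list of 60 also had isoforms. The annotation holds 33 unlisted genes with the symbol RpL, RpS or sta, among them genes named as RP-like. Of these, 11 (33.3%, 95% Wilson interval 19.8 to 50.4%) had 1 isoform each: sta, RpL27A, RpL31, RpL37-1, RpL37A, RpS12, RpS14b, RpS26, RpS27, RpS28b and RpS29. All 11 had an annotated splice chain and the longest annotated coding sequence. Their spliced length had a median of 612 nt (95% interval 556 to 961 nt), their first exon 41 nt (34 to 154 nt) and their 5′ UTR 71 nt (30 to 113 nt).

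The 3′ UTR of these 11 genes had a median of 169 nt and reached 687 nt in RpS28b, whose coding sequence has 195 nt, and 415 nt in RpL37A. The start codon was the last 3 nt of its exon in 3 of the 11 isoforms, among them RpL27A and RpL37-1. Their introns hosted 6 snoRNA genes in 4 genes. The hosts outside all RP lists with the most snoRNA genes were Arpc2, a subunit of the actin-nucleating Arp2/3 complex, with 17, kra with 8 and Hrb98DE, an hnRNP gene, with 7.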
